A study of Mus musculus with 2 samples.

Results

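Macrophage-rich spots of orthotopic mouse pancreatic tumors were described from spatial transcriptomics (Visium CytAssist), in which each barcoded spot reads, through pairs of gene probes, a small region of a tissue section in which cells of several types can lie. They were chosen by measured values, as the 419 spots, of 5772 in all, that stood in the top 10% of the eligible spots of their own library by the summed level of 7 genes: Adgre1, Cd68, C1qa, C1qb, C1qc, Csf1r and Mrc1. A spot was eligible with at least 10000 unique molecular identifiers (UMIs) and under 2% of its UMIs from the pancreatic enzyme genes Cpa1, Ctrb1, Prss2, Pnlip and Cela2a, which left 1349 of 2220 spots in the KPC-shZEB1-labelled library and 2857 of 3552 in the library labelled KPC-shV. Of these, 134 and 285 were macrophage-rich, and the 674 and 1428 spots of the lowest 50% by the same sum were set against them.

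The tumors grew as allografts in the pancreas of mice injected with KPC cells, a mouse pancreatic cancer line, carrying either a short hairpin RNA against Zeb1 (KPC-shZEB1) or the control vector (KPC-shV). The study asked how the transcription factor ZEB1 shapes the immune environment and therapy response of these tumors. For this assay 2 tumors per group were taken, and 1 library of each condition was analysed here. The labels give neither strain nor age, and they name no drug, whereas the study gives gemcitabine for tumors from which the tissue of this assay was taken, so tumor, section and hairpin cannot be told apart between the libraries. The hairpin was in the injected tumor cells, whereas the macrophages were those of the host.

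Macrophages are phagocytes that arise from blood monocytes or from cells seeded before birth. They depend on signals through the receptor encoded by Csf1r, take up dying cells and debris through scavenger and Fc receptors, digest them in lysosomes, present peptides on MHC class II and produce much of the C1q that starts the classical complement pathway. In pancreatic tumors they are found mainly in the collagen-rich stroma. Genes such as Mrc1, Lyve1 and F13a1 are known for the resident, scavenging kind, whereas Gpnmb, Trem2 and Spp1 are known for the lipid-loaded kind.

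A level is the UMI count of a gene, or of a list, over the pooled spots of a class, per 1000000 UMIs (CPM), and classes were compared by the log2 ratio of levels. Exact 95% intervals, which cover counting error only, follow a value as a range. A gene was tested within a library at 5 CPM or more over its eligible spots, and between libraries at 5 CPM or more as the mean of the macrophage-rich spots of both. Past 2-fold means a log2 ratio beyond 1 or -1. With 1 library per condition there was no statistical test, and spots are not replicates. The libraries held 140493626 UMIs (KPC-shZEB1) and 172059528 UMIs (KPC-shV) over all spots. The macrophage-rich spots held 6935083 UMIs in the library labelled KPC-shZEB1 (median 52220.5 per spot) and 9313101 UMIs in the library labelled KPC-shV (median 30218), against medians of 59074.5 and 61046 in the lowest 50%, so in the latter library they were also the shallower spots. Whether this depth gap had a part in the results was not tested. In spots of 20000 to 60000 UMIs, an added alternative, 3286 genes were past 2-fold in either direction within the KPC-shZEB1-labelled library (2808 in all eligible spots), 3124 within the other (3134) and 771 between the macrophage-rich spots of both (542).

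Zeb1 (ENSMUSG00000024238), the targeted gene, did not separate the libraries as labelled. Its level over all eligible spots was 15.3 CPM in the KPC-shZEB1-labelled library and 12.7 CPM in the library labelled KPC-shV. In macrophage-rich spots it was 18.6 and 19.9 CPM, a log2 ratio of -0.09 with an interval of -0.43 to 0.24, and in the lowest 50% it was 12.6 and 9.47 CPM, a log2 ratio of 0.41. The pooled spots also hold host cells without the hairpin, and fibroblast genes were higher in the lowest 50% of the KPC-shZEB1-labelled library too (3259 against 1786 CPM), whose part in the Zeb1 level was not tested. Zeb1 thus gave no check of the labels, and the libraries are named by their labels throughout.

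The 7 ranking genes chose the spots, and their values are a description. In the library labelled KPC-shZEB1 the lowest 3 sums among macrophage-rich spots were 5281, 5281 and 5284 CPM and the highest 3 outside were 5265, 5253 and 5249.7 CPM. In the library labelled KPC-shV they were 5182, 5189 and 5201 CPM inside and 5175, 5169 and 5159.7 CPM outside, so the boundary had no gap in either section and stood at nearly the same height. The median spot sum was 6433 CPM in macrophage-rich spots and 1292 CPM in the lowest 50% of the library labelled KPC-shZEB1, and 6834 and 537 CPM in the library labelled KPC-shV. Macrophage genes that the ranking did not use are given below as a description of the label. Fibroblast genes were high in the same spots, which are therefore called macrophage-rich by their rule and are not regions of macrophages alone.

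Among the ranking genes, Cd68, Mrc1 and the C1q genes C1qb and C1qc have a promoter in the RefSeq table used (build GRCm38.p6, 300 bases around the annotated start). These are shown because the ranking that defines the spots rests on their genes, and so that GAGGAA, the core bound by the myeloid factor PU.1 (encoded by Spi1), can be looked for in them, with no weight given to their shared rise, which the rule fixes. It was searched on both strands, as GAGGAA or its complement TTCCTC, is in capitals below, and did not overlap itself in these promoters.
C1qb, chr4:136886151-136886450, minus strand: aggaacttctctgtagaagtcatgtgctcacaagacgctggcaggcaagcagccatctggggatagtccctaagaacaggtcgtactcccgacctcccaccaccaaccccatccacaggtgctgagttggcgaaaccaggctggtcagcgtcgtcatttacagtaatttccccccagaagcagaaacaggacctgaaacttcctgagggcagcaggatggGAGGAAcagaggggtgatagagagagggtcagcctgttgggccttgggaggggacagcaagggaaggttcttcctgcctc
C1qc, chr4:136892865-136893164, minus strand: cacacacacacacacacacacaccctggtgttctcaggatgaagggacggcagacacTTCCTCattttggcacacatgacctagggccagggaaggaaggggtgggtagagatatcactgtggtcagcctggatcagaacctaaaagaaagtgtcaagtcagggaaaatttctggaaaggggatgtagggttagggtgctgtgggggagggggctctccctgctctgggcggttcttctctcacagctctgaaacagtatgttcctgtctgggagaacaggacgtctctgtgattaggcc
Cd68, chr11:69666121-69666420, minus strand: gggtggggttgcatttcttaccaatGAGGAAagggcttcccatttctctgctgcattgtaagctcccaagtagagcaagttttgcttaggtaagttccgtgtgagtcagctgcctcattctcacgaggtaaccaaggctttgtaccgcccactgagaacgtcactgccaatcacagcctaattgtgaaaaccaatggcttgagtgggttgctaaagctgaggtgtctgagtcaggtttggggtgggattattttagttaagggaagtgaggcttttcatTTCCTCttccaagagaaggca
Mrc1, chr2:14229164-14229463, plus strand: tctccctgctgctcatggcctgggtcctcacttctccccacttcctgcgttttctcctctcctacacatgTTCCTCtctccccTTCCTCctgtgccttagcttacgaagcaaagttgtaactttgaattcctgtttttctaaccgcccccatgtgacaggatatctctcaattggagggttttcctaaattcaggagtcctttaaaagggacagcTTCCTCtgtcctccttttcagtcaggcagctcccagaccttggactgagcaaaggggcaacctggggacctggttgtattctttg
All 4 held the core, with 1 match in C1qb, 1 in C1qc, 2 in Cd68 and 3 in Mrc1, against 28.3% of the 32851 promoters of this length in the table. A match is a run of letters and not a site. Spi1 itself stood at 214 CPM in the macrophage-rich spots of the library labelled KPC-shZEB1 and 219 CPM in those of the library labelled KPC-shV, against 50.6 and 24.6 CPM in the lowest 50%.

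The ranking genes were not raised evenly. C1qa (chr4:136895917-136898803, GRCm38), C1qb (chr4:136880129-136886187) and C1qc (chr4:136889804-136893065), neighbours on chromosome 4 that encode the chains of C1q, made up most of the sum. C1qa stood at 2119.9 CPM in macrophage-rich spots and 416 CPM in the lowest 50% of the library labelled KPC-shZEB1, and at 2081 and 176 CPM in the library labelled KPC-shV. Mrc1, the mannose receptor of scavenging macrophages, rose from 65.8 to 504 CPM and from 27.5 to 1025 CPM between the lowest 50% and the macrophage-rich spots, log2 ratios of 2.94 and 5.22, the highest of the 7 in each library. Csf1r, the receptor of the macrophage growth factor CSF1, stood at 623 against 106 CPM and at 663 against 57.0 CPM. The lowest spots of the library labelled KPC-shZEB1 held more of these genes, 1309 CPM for the sum against 586 CPM, and all 7 ratios were smaller in that library. In macrophage-rich spots alone, 6 of the 7 differed between the libraries by log2 ratios between -0.09 and 0.15, and Mrc1 was the exception.

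**Figure D1:**
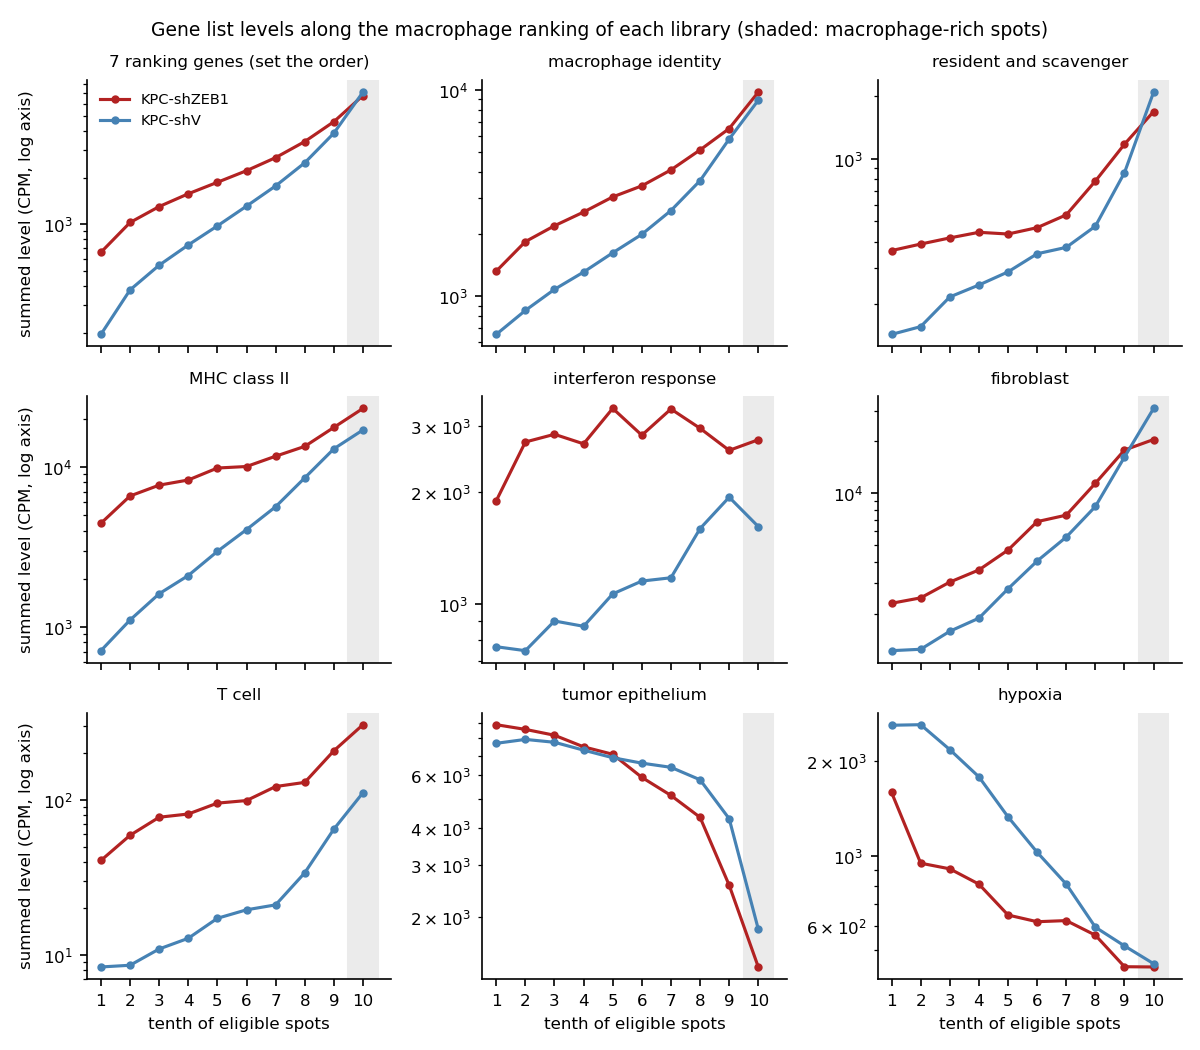
Summed level of 9 gene lists (CPM, log axis) in each of 10 equal bins of the eligible spots, ordered by the 7 ranking genes, for the library labelled KPC-shZEB1 (red) and the library labelled KPC-shV (blue); the shaded last bin is the macrophage-rich spots. The ranking genes rise by construction; fibroblast genes reached 20431 and 30931 CPM in the last bin, tumor epithelium genes fell to 1352 and 1815 CPM, and hypoxia genes fell from 1586 and 2592 CPM in the first bin to 443 and 454 CPM.

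Macrophage genes that took no part in the ranking were raised in the same spots. Of 16 such identity genes, 15 were past 2-fold higher in macrophage-rich spots than in the lowest 50% of the library labelled KPC-shZEB1, where 12.9% of the 11120 genes tested were, and 15 in the library labelled KPC-shV, where 14.4% of 10952 were. The ranking used this contrast, so nothing is read from these counts or from the within-library counts that follow. Their median log2 ratios were 2.35 and 3.19, beside medians over all genes tested of -0.19 and -0.20. In a spot, more macrophages and more RNA per macrophage cannot be told apart.

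Fcgr1, the high-affinity Fc receptor of macrophages, stood at 174 against 32.6 CPM (log2 ratio 2.41) in the KPC-shZEB1-labelled library and at 231 against 12.1 CPM (4.26) in the library labelled KPC-shV. Mertk, a receptor for the engulfment of dying cells, stood at 183 against 42.3 CPM and at 213 against 18.8 CPM. Ctss, the cathepsin that trims the invariant chain of MHC class II, went from 857 to 4014 CPM and from 271 to 3316 CPM. These genes, together with Aif1, Tyrobp, Fcer1g, Cd84 and the transcription factor gene Maf, were higher in macrophage-rich spots of both sections. Cd14, the endotoxin co-receptor, was not, at 46.6 against 48.0 CPM and 58.1 against 76.8 CPM. Lyz2, the myeloid lysozyme, had 28.0 and 24.9 CPM in macrophage-rich spots, with log2 ratios of 2.49 and 3.21.

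Genes of resident and scavenging macrophages were raised as well. F13a1, which encodes a subunit of coagulation factor XIII, went from 13.8 to 103 CPM in the KPC-shZEB1-labelled library and from 9.06 to 267 CPM in the library labelled KPC-shV, log2 ratios of 2.90 and 4.88. Stab1, a scavenger receptor, went from 30.4 to 240.2 CPM and from 23.2 to 518 CPM. Gas6, the ligand that bridges dying cells to Mertk and Axl, went from 280.0 to 1012 CPM and from 109 to 804 CPM. Of the 12 genes on the list, 6 and 5 reached 5 CPM over the eligible spots, and each of these was past 2-fold higher. Timd4, a marker of long-resident macrophages, stayed at 1.59 and 1.93 CPM in macrophage-rich spots, near 0.

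Receptors for antibody and complement followed. Each of the 4 Fc gamma receptor genes was past 2-fold higher in both libraries, with Fcgr2b, the inhibitory receptor, at 666 against 95.2 CPM and 924 against 57.3 CPM. Of 10 complement genes outside C1q, 9 and 9 were past 2-fold higher. C3, the central complement component, had log2 ratios of 3.42 and 3.44, Cfp (properdin) of 3.03 and 4.40, and Serping1, the C1 inhibitor, of 3.33 and 3.41. Cfb stayed under 2-fold, with 0.67 and 0.66.

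Growth factor and chemokine genes differed by member. Csf1 was higher in macrophage-rich spots (19.3 against 5.33 CPM and 32.0 against 6.27 CPM), whereas Il34, the other ligand of the CSF1 receptor, was not (25.7 against 35.0 CPM and 21.3 against 45.1 CPM). Csf2, the granulocyte-macrophage factor, had log2 ratios of -0.70 and -0.84. Of the 9 genes for colony-stimulating factors and myeloid regulators, 5 were past 2-fold higher in each library. Of the chemokine genes, Ccl8 went from 165 to 1753 CPM and from 26.5 to 1219.6 CPM, and Ccl6, Ccl7, Ccl9 and Ccl12 had ratios between 1.98 and 3.80. Ccl3 and Ccl4, which activated myeloid cells make, stood at 6.34 and 12.0 CPM in macrophage-rich spots of the library labelled KPC-shZEB1 and at 3.65 and 9.88 CPM in those of the library labelled KPC-shV, and had log2 ratios of 0.32 and -0.09 in the former and -1.79 and -1.17 in the latter, where that of Ccl4 turned to 0.16 with both classes limited to the upper 50% by fibroblast genes.

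Ccr2, the receptor that brings monocytes out of the blood, was higher in macrophage-rich spots of both sections. It stood at 199.7 against 30.4 CPM (log2 ratio 2.72) in the KPC-shZEB1-labelled library. In the library labelled KPC-shV it stood at 345 against 3.57 CPM. The log2 ratio there, 6.59, is not read, with under 5 CPM in the lowest spots. The median macrophage-rich spot held 179 CPM in the former and 315 CPM in the latter, and 1206 of the 1428 lowest spots of the latter held no Ccr2 UMI. Plac8, on the monocyte list too, went the other way, at 839.8 against 3112 CPM and 828 against 2305 CPM.

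Of the lipid-associated genes, Apoe and Trem2 were higher and Spp1 was lower. Apoe, the lipoprotein that carries cholesterol out of macrophages, went from 816 to 4922 CPM and from 327 to 4819.9 CPM. Spp1 (osteopontin), which tumor cells also make, stood at 2212 against 8104 CPM and at 2823 against 9314 CPM, log2 ratios of -1.87 and -1.72. The middle 80% of spots ran from 194 to 4779.6 CPM in macrophage-rich spots and from 2963 to 13889 CPM in the lowest 50% of the library labelled KPC-shZEB1, so these classes overlapped. Of the 10 genes on the list, 5 were past 2-fold higher and 1 lower in each library. Lgals3, Cd9 and Plin2, which epithelium expresses as well, lay between -0.52 and 0.01 in both libraries.

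Of 12 lysosomal genes, 7 and 8 were past 2-fold higher. They summed to 18204 against 7619.6 CPM and to 16972 against 6545 CPM. Hexa and Ctsd led in the library labelled KPC-shZEB1 with 1.67 and 1.68, whereas Lipa, the lysosomal acid lipase, was at -0.07 there and at 1.39 in the library labelled KPC-shV. Iron genes differed by member. Slc11a1, the phagosomal metal transporter, had log2 ratios of 3.12 and 3.09, and Fth1, the ferritin heavy chain, 2.09 and 1.06. Hmox1, the heme oxygenase, had 1.97 and 0.70, whereas the iron exporter gene Slc40a1 was lower (-2.56 and -1.60), as was the transferrin receptor gene Tfrc (-1.44 and -1.54). Engulfment genes were mostly higher, with Sirpa, the receptor of the CD47 signal, at 381 against 68.3 CPM and 279 against 26.8 CPM and Axl at 439 against 173 CPM and 623 against 173 CPM.

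**Figure D2:**
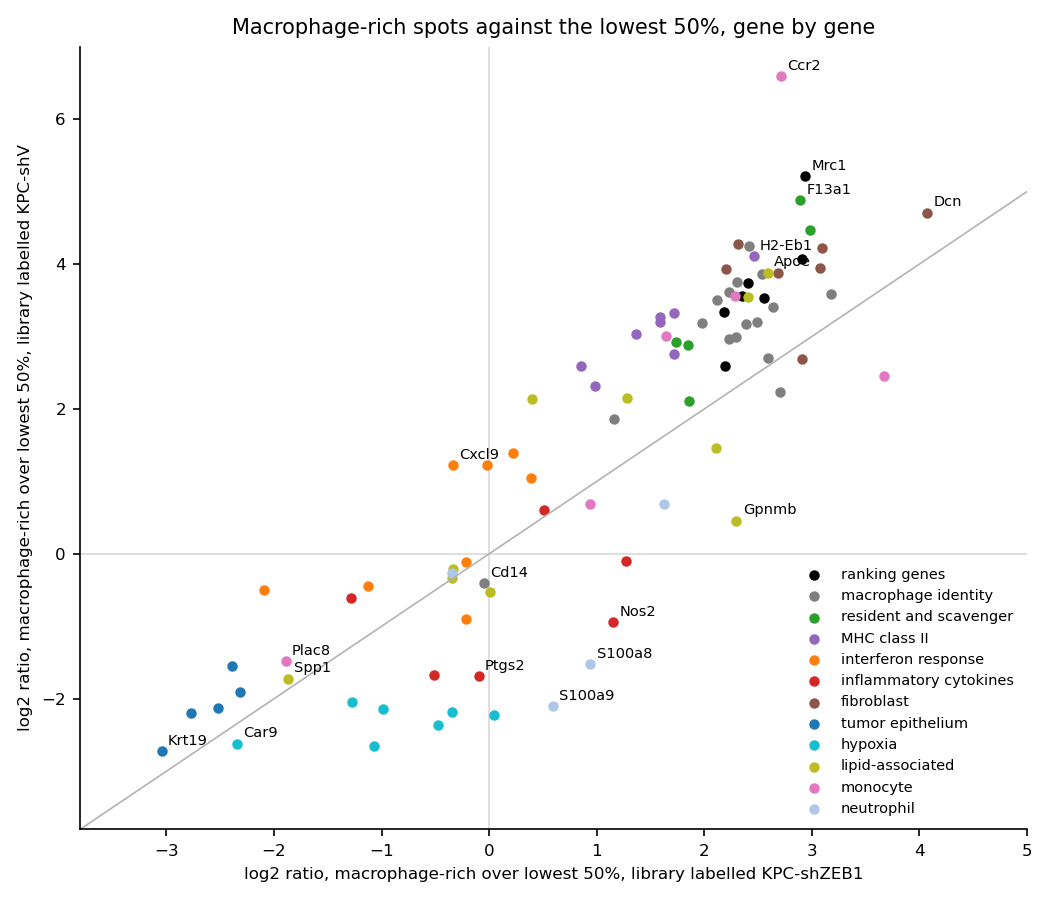
Log2 ratio of the level in macrophage-rich spots over the lowest 50%, in the library labelled KPC-shZEB1 (x axis) and in the library labelled KPC-shV (y axis), for genes of 12 lists with at least 5 CPM over the eligible spots of both; each point is 1 gene and the diagonal marks equal ratios. Most macrophage genes lie above the diagonal, Gpnmb lies below it at 2.30 and 0.46, and tumor epithelium genes are negative on both axes. Ccr2 is drawn at 2.72 and 6.59, but the latter value is not read, with under 5 CPM in the lowest 50%.

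MHC class II genes rose along the ranking in both sections from very different starting levels. The 8 genes summed to 23169 CPM in macrophage-rich spots and 7458 CPM in the lowest 50% of the library labelled KPC-shZEB1, and to 17001 and 1749 CPM in the library labelled KPC-shV. H2-Eb1, a beta chain, had log2 ratios of 2.46 and 4.11, and Ciita, the master regulator of class II transcription, 0.86 and 2.60. The spots of the lowest 50% thus differed between the libraries by 2.09 on the log2 scale and the macrophage-rich spots by 0.45.

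Interferon-response genes did not follow the macrophage genes in the library labelled KPC-shZEB1. Their sum was 2759 CPM in macrophage-rich spots and 2727 CPM in the lowest 50%. Cxcl9, the chemokine that draws T cells, stood at 789 against 995 CPM (log2 ratio -0.33) there and at 457 against 195 CPM (1.23) in the library labelled KPC-shV. Of 8 genes tested, 0 and 4 were past 2-fold higher, and Rsad2 and Ifit1 were past 2-fold lower in the library labelled KPC-shZEB1, where 12.3% of all genes tested were (14.2% in the library labelled KPC-shV). This pattern depended on the comparison spots: with both classes limited to the upper 50% of eligible spots by fibroblast genes, an alternative chosen after seeing the data, the log2 ratio of the sum in the library labelled KPC-shZEB1 was 1.20 and that of Cxcl9 was 0.97.

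Inflammatory genes differed by member and between the sections. Of 6 tested, 2 were past 2-fold higher and 1 was lower in the KPC-shZEB1-labelled library, the latter Il18 with a log2 ratio of -1.28. In the library labelled KPC-shV, 0 of 6 were past 2-fold higher and 2 were lower. Nos2, the inducible nitric oxide synthase, stood at 76.6 against 34.4 CPM in the KPC-shZEB1-labelled library and at 28.2 against 54.1 CPM in the library labelled KPC-shV, log2 ratios of 1.16 and -0.94. Il1b went from 58.2 to 141 CPM in the former and was 84.6 against 90.9 CPM in the latter. Ptgs2, the prostaglandin synthase, stood at 21.2 against 22.7 CPM and at 35.4 against 114 CPM. Il6, under the 5 CPM limit over the eligible spots, stood at 9.37 against 1.24 CPM and 9.56 against 1.14 CPM. Tnf lay between 10.3 and 15.9 CPM in all 4 classes of spots.

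Immunoregulatory genes were mostly higher in macrophage-rich spots. Retnla, a gene of alternatively activated macrophages, went from 2.94 to 44.6 CPM and from 0.947 to 47.2 CPM, under the limit for a test in the library labelled KPC-shV. Mgl2, a lectin of the same kind of macrophages, stood at 274 against 97.7 CPM and at 405 against 30.5 CPM. Il10 was near 0, under 2 CPM in macrophage-rich spots of both libraries. Il1rn, the interleukin-1 receptor antagonist, was lower in macrophage-rich spots, with log2 ratios of -0.89 and -1.19.

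Other cells shared these spots. The 7 fibroblast genes summed to 20431 against 3259 CPM in the KPC-shZEB1-labelled library and to 30931 against 1786 CPM in the library labelled KPC-shV, all 7 past 2-fold higher in both, with Col3a1 the most abundant. Dcn (decorin) led with 4.08 and 4.71. Of the macrophage-rich spots, 55 of 134 (41.0%, interval 32.6% to 49.9%) and 195 of 285 (68.4%, 62.7% to 73.8%) were also in the top 10% of their library by fibroblast genes, and 131 and 285 were in the upper 50%. Endothelial genes summed to 222 against 46.7 CPM and 317 against 54.9 CPM, led by Pecam1 and Cdh5, and pericyte genes, led by Pdgfrb, to 222 against 68.7 CPM and 349 against 57.7 CPM. Acinar genes, limited by the rule, summed to 2187 against 982 CPM and 773 against 80.8 CPM, islet genes to 66.2 against 3.97 CPM and 26.7 against 8.60 CPM, and lymphatic endothelial genes to 109 against 6.96 CPM and 24.6 against 6.45 CPM. The part of these cells in the macrophage results was not tested. With both classes limited to the upper 50% by fibroblast genes the median ratio of the identity genes was 2.17 and 2.90, and the ratio of the islet sum in the library labelled KPC-shV turned from 1.64 to -0.12.

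Of the T cell genes tested, 5 of 6 and 2 of 2 were past 2-fold higher in macrophage-rich spots. T cell genes summed to 306 against 71.7 CPM and to 111 against 11.8 CPM, with Cd3e the most abundant, whereas Cd8a, of the cytotoxic T cell co-receptor, stood at 7.79 against 7.61 CPM and 3.11 against 1.14 CPM. T cell-rich and macrophage-rich spots coincided in 68 of 134 (50.7%) and 147 of 285 (51.6%) macrophage-rich spots, and in 1.48% and 0.560% of the lowest 50%. T cell-rich meant the top 10% of each library by T cell genes, and this boundary was far higher in the KPC-shZEB1-labelled library. The shares are therefore not compared between the libraries. B cell genes summed to 134 against 12.2 CPM and 42.4 against 8.57 CPM, led by Cd79b, with 3 and 0 genes reaching the limit for a test. Dendritic cell genes, some of which macrophages also express, summed to 143 against 27.1 CPM and 121 against 18.5 CPM. Jchain, the joining chain of secreted antibody, went from 9.29 to 580.1 CPM and from 1.09 to 64.7 CPM; on the same list Sdc1, which epithelium expresses as well, was lower (-1.97 and -1.52), and the sum of that plasma cell list was -0.52 and -1.31 on the log2 scale.

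Tumor epithelial genes were low in macrophage-rich spots. They summed to 1352 against 8023 CPM and to 1815 against 7497 CPM, with all 5 past 2-fold lower in both libraries and Krt7 the most abundant. No macrophage-rich spot was in the top 10% by epithelial genes (0 of 134, which allows up to 2.72% by the exact interval, and 0 of 285, up to 1.29%) or by hypoxia genes. All 7 hypoxia genes were past 2-fold lower in the library labelled KPC-shV, with Slc2a1, the glucose transporter, at 90.8 against 412 CPM, and 3 of 7 in the library labelled KPC-shZEB1. Of 5 proliferation genes, 3 and 1 were past 2-fold lower, with Mki67 at 188 against 381 CPM and 216 against 295 CPM.

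Neutrophil genes differed by member and library. Of those tested, 1 of 4 was past 2-fold higher in the KPC-shZEB1-labelled library, and 1 was higher and 2 were lower of 5 in the other. S100a8 stood at 67.2 against 35.0 CPM in the KPC-shZEB1-labelled library and at 39.2 against 113 CPM in the library labelled KPC-shV, and S100a9 at 61.3 against 40.7 and 48.5 against 208 CPM. Csf3r, the receptor of the granulocyte factor, had log2 ratios of 1.62 and 0.69, Cxcr2, a chemokine receptor of neutrophils, -0.35 and -0.27, and Mmp8, the neutrophil collagenase, 2.28 and 1.82, under the limit for a test in the KPC-shZEB1-labelled library. In macrophage-rich spots the list summed to 229.7 and 188 CPM. The top 10% by the list, set at 279 CPM in the former library and 915 CPM in the latter, took in 17.9% of the macrophage-rich spots (interval 11.8% to 25.5%) and 0 of 285, and with boundaries so far apart these shares are not compared. The neutrophil-restricted genes Ly6g and Retnlg were at 5.62 and 4.47 CPM in macrophage-rich spots of the former and 2.47 and 4.51 CPM in those of the latter. NK cell genes summed to 38.1 and 17.2 CPM, with Eomes at 2.60 and 1.72 CPM, and mast cell genes to 34.0 and 35.1 CPM, most of it Kit, with Cpa3 at 1.30 and 0.644 CPM. Adipocyte genes were near 0 in both, at 6.20 and 3.65 CPM, and mesothelial and erythrocyte genes summed to 59.1 and 127 CPM (mostly Msln) and to 24.9 and 83.1 CPM (mostly Hbb-bs).

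**Figure D3:**
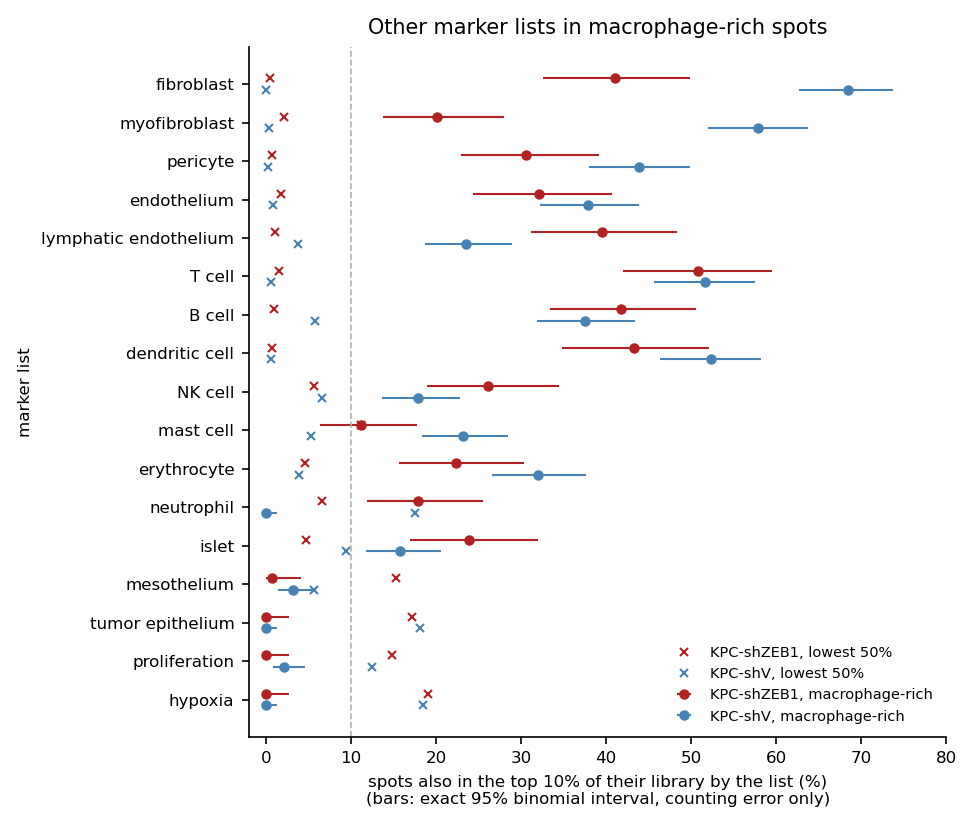
Share of macrophage-rich spots (circles, with exact 95% binomial intervals for counting error) and of the lowest 50% (crosses) that were also in the top 10% of eligible spots of their library by another marker list; the dashed line at 10% is the share over all eligible spots. Fibroblast genes reached 41.0% and 68.4% and T cell genes 50.7% and 51.6%, and tumor epithelium and hypoxia genes were at 0 in both libraries. The boundary for T cell genes was far higher in the library labelled KPC-shZEB1, so the T cell shares are not compared between the libraries.

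Between the libraries, single genes of resident macrophages, lipid handling, complement and antigen presentation were past 2-fold in macrophage-rich spots, and other members of the same lists were not. Of 11384 genes tested, 288 (2.53%) were past 2-fold higher in the KPC-shZEB1-labelled library and 254 (2.23%) were past 2-fold lower, with a median log2 ratio of -0.07. None of the 16 identity genes was past 2-fold in either direction, and their ratios ran from -0.49 for Maf to 0.92 for Cybb, the phagocyte oxidase subunit.

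Several resident and scavenger genes were lower in the macrophage-rich spots of the library labelled KPC-shZEB1. F13a1, Stab1, Cd163 and Cbr2 were past 2-fold lower with over 5 CPM in both libraries. Lyve1 (3.75 against 9.77 CPM) reached the limit only through the library where it was high, so its ratio is not read and no count is taken over the list. F13a1 stood at 103 CPM against 267 CPM (log2 ratio -1.38, -1.50 to -1.26), and Stab1 at 240.2 against 518 CPM (-1.11, -1.19 to -1.03). Mrc1, which took part in the ranking and is given as a description only, stood at 504 against 1025 CPM (-1.02), and its middle 80% of spots ran from 158 to 1042 CPM and from 437 to 2025 CPM, so the spots of the libraries overlapped. Pf4, the platelet factor that resident macrophages also express, had -0.93, whereas Gas6 (0.33) and Marco (0.87) were higher. In the lowest 50% the ratio of F13a1 was 0.61 and that of Mrc1 was 1.26, the opposite direction. Over all alternatives the ratio of F13a1 ran from -1.61 to -0.75 and that of Stab1 from -1.46 to -0.69, with the values nearest 0 when the top 20% of spots were taken. The sum of the list, dominated by Gas6, was at -0.31 and turned to 0.11 in spots of 20000 to 60000 UMIs (an added alternative), where F13a1 stood at -1.06 and Stab1 at -0.92.

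Receptors of monocyte recruitment and activation were lower in that library as well, under 2-fold. Ccr2 had a log2 ratio of -0.79 (-0.88 to -0.70), C5ar1, the receptor of the complement fragment C5a, -0.90, Csf2ra, a chain of the granulocyte-macrophage factor receptor, -0.83, and Fcgr2b -0.47. Csf2 itself was past 2-fold lower, at 14.1 against 34.6 CPM. Trem2 stood at 74.8 against 110.0 CPM (-0.56).

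Gpnmb, a membrane protein of lipid-loaded macrophages, had the highest ratio of the lipid-associated genes in the macrophage-rich spots of the library labelled KPC-shZEB1. It stood at 209 CPM against 42.1 CPM (log2 ratio 2.31, 2.15 to 2.48), and ran from 2.10 to 2.68 over all alternatives. It was unevenly spread: 25 of 134 macrophage-rich spots held no Gpnmb UMI, the median spot held 79.7 CPM and the highest held 1318 CPM, whereas 157 of 285 held none in the library labelled KPC-shV, where the highest held 454 CPM. Fabp5, a fatty acid carrier, stood at 783 against 375 CPM (1.06) and Fth1 at 8801 against 4453 CPM (0.98), and both differed less in the lowest 50% (0.41 and -0.05). Plin2, the lipid droplet coat, went the other way (-0.99).

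**Figure D4:**
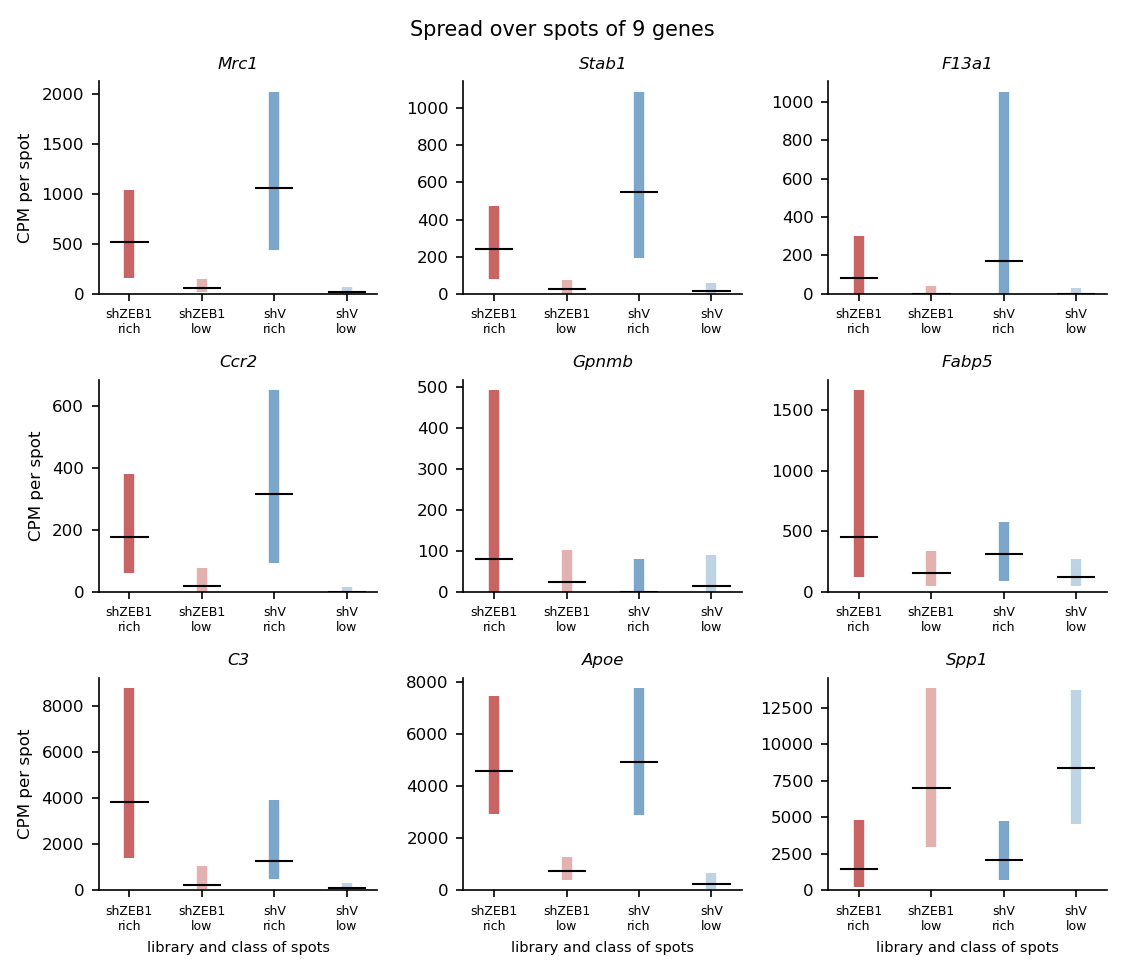
Level per spot (CPM, linear axes from 0) of 9 genes in macrophage-rich spots (dark bars) and the lowest 50% (pale bars) of the libraries labelled KPC-shZEB1 (red) and KPC-shV (blue); bars run from the 10th to the 90th percentile over spots and lines mark the median. Mrc1, Stab1 and F13a1 reach higher in the library labelled KPC-shV, and Gpnmb, Fabp5 and C3 reach higher in the KPC-shZEB1-labelled library, and the bars of the libraries overlap in each case.

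C3 was past 2-fold higher in the macrophage-rich spots of the library labelled KPC-shZEB1, as was Nos2 of the inflammatory genes. C3 stood at 4175 against 1480.4 CPM (1.496, 1.47 to 1.53), and the difference was as large in the lowest 50% (1.51). Nos2 had 1.44, Il1b 0.73 and Ptgs2 -0.74. Cd274, an immunoregulatory gene that encodes the checkpoint ligand PD-L1, had 0.96, in a list whose median was -0.43. In the lowest 50% Nos2 and Il1b were lower in that library (-0.66 and -0.64), whereas Il18 was higher (1.30). Il12b, a subunit of interleukin-12, stood at 9.08 against 2.25 CPM and reached the 5 CPM limit only through the library where it was high, so its ratio is not read.

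Of the 8 class II genes, 1 was past 2-fold higher in that library, and of 8 interferon-response genes 1 was past 2-fold higher and 1 lower. H2-Aa stood at 3141 against 1551 CPM (1.02, 0.99 to 1.05) in macrophage-rich spots and had 2.64 in the lowest 50%. H2-DMb1, a chain of the peptide editor, had 0.02 in macrophage-rich spots and 1.35 in the lowest 50%. Gbp2, an interferon-induced GTPase, had 1.05 and 2.23, and Cxcl9 0.79 and 2.35. Rsad2, an antiviral enzyme, went the other way, at 8.65 against 28.2 CPM (-1.71).

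**Figure D5:**
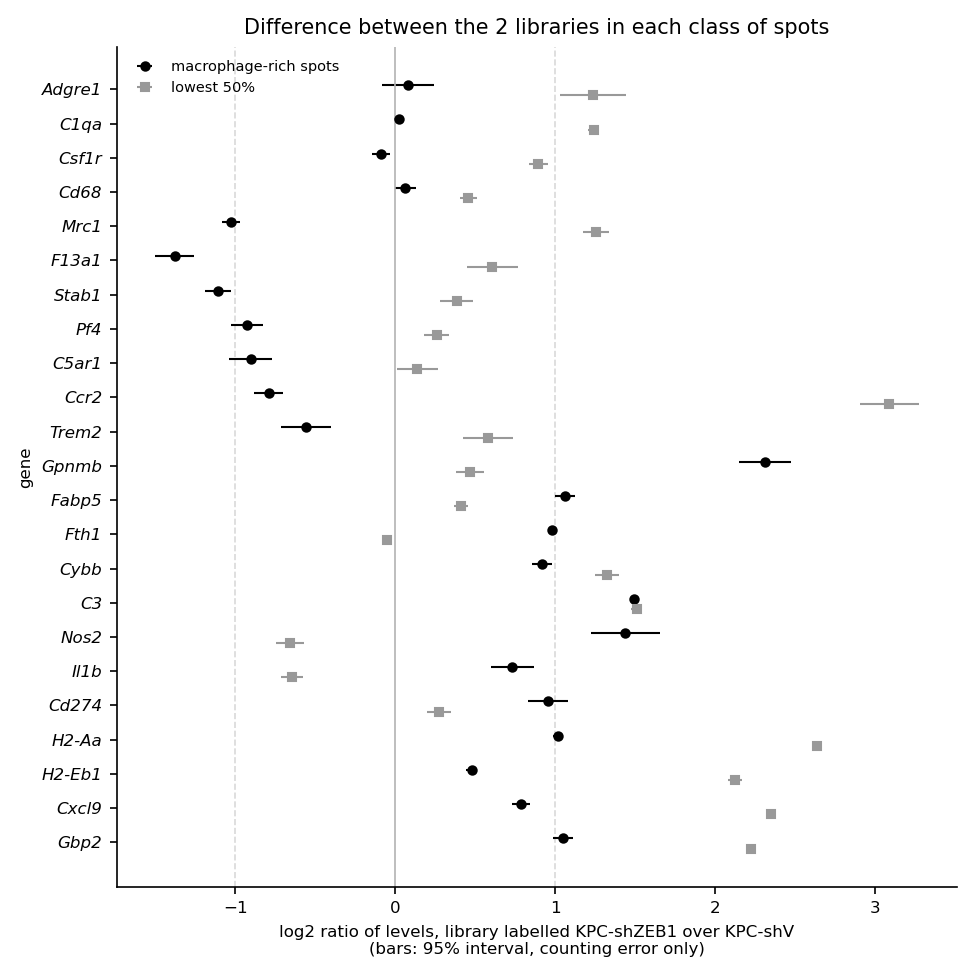
Log2 ratio of levels, library labelled KPC-shZEB1 over library labelled KPC-shV, for 23 genes in macrophage-rich spots (black circles) and the lowest 50% (grey squares); bars are 95% intervals for counting error and dashed lines mark 2-fold. Adgre1, C1qa, Csf1r and Cd68 lie near 0 in macrophage-rich spots, Mrc1, F13a1 and Stab1 lie near -1 and change sides in the lowest 50%, and Gpnmb lies at 2.31.

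The neighbouring cells differed between the libraries in the same spots. T cell genes summed to 306 against 111 CPM (log2 ratio 1.46), B cell genes to 134 against 42.4 CPM (1.65) and lymphatic endothelial genes to 109 against 24.6 CPM (2.15), with Prox1, the factor that defines that endothelium, at 50.3 against 7.62 CPM. Myofibroblast genes were lower, at 803 against 1742 CPM (-1.12, Tagln the most abundant), whereas 0 of 7 fibroblast genes were past 2-fold, with a sum at -0.60, a median of -0.0074 and members from -0.92 for Col1a2 to 0.62 for Dcn. Acinar genes, under 2% in each spot by the rule, were higher (2187 against 773 CPM), and islet genes summed to 66.2 against 26.7 CPM (Gcg the most abundant). The part of these cells in the differences between the libraries was not tested.

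By size, antibody genes led outside the lists. In the macrophage-rich spots of the library labelled KPC-shZEB1 against those of the library labelled KPC-shV, Ighg3 stood at 1654 against 71.5 CPM and Ighm at 3032 against 185 CPM. Tff2, a trefoil factor of gastric mucous cells, stood at 527 against 22.3 CPM. Antibody gene segments resemble each other, so single segments are uncertain. Without the 10% of spots richest in B cell and plasma cell genes the log2 ratio of Ighg3 was 3.75, from 4.53. Sdc1, which epithelium expresses as well, was the most abundant gene of the plasma cell list in both libraries. By that list, 0 of 285 macrophage-rich spots of the library labelled KPC-shV were in the top 10%, against 11.8% of the lowest 50%. The setting thus need not remove plasma cell spots, and it cannot show whether antibody genes stay high without them. Fcna, a ficolin of macrophages, was among the most lowered (25.4 against 163 CPM, -2.69).

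Within each library, by the same rule, antibody genes were the most frequent among the 10 highest ratios. Igkc, the kappa constant region, went from 516 to 23292 CPM and from 39.9 to 2783 CPM. Saa3, an acute-phase gene of macrophages and fibroblasts, went from 12.97 to 687 CPM and from 7.30 to 341 CPM, and Sfrp1, a secreted Wnt inhibitor of stroma, stood at 943 against 14.4 CPM in the library labelled KPC-shV. Among the 10 lowest ratios of both libraries was Lypd8, a colonic epithelial gene, at 16.9 against 454 CPM and at 9.77 against 121 CPM. Muc13 stood at 11.8 against 253 CPM in the library labelled KPC-shZEB1. Egln3, a prolyl hydroxylase induced by hypoxia, stood at 37.5 against 660.0 CPM in the library labelled KPC-shV.

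Macrophage-rich spots also differed among themselves. Over the 134 and 285 spots, the summed level of resident and scavenger genes had a Spearman correlation with that of fibroblast genes of 0.58 and 0.76, and MHC class II genes one of -0.41 and -0.61. MHC class II genes went with T cell genes (0.48 and 0.36). In the library labelled KPC-shZEB1 lysosomal genes went against resident genes (-0.74) and with identity genes (0.89), whereas in the library labelled KPC-shV the former value was -0.02 and the latter 0.69. These values describe spots of 1 library, which share their depth and their total UMIs, and lists that share some cell types. The sum of MHC class II genes ran from 7744 to 40088 CPM and from 2217 to 42247 CPM over macrophage-rich spots, and the sum of resident genes from 220.0 to 4659 CPM and from 378 to 7668 CPM.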

How the data were processed

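Orthotopic KPC allograft tumors were measured by spatial transcriptomics with probe capture, with 1 library of each condition. The authors' submission notes name Space Ranger 2.0.1 and the mouse build mm10, and the deposited matrices hold whole-number UMI counts for 19465 genes in spots over tissue, not normalized. Groups came from the treatment given in the sample characteristics, which names the injected cells. No doublet caller was run, since spots are regions. The libraries share 1718 spot barcodes, which are positions of the same slide grid and not shared cells.

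Counts of the spots of a class were summed and divided by their total (CPM). Ratios carry conditional binomial 95% intervals, levels Poisson and shares Clopper-Pearson ones, all for counting error only. UMIs are counted molecules, so PCR copies do not enter. Gene positions (GENCODE, GRCm38) matched 19451 of the genes. The members and the 35 gene lists (250 genes, of which 9 were not among those measured: Folr2, Ly6c2, Isg15, Ftl1, C1s1, Ccl21a, Krt18, Hba-a1 and Ldha) were chosen with earlier results of these data known. Besides list genes, the text names genes from the 10 highest and 10 lowest ratios of each comparison at 20 CPM or more, outside the lists and of 1 direction under every setting but the added ones. Genes drawn in the plots were chosen after their values were seen. Alternatives changed the share of spots taken, the ranking genes, the depth and acinar limits, the scaling, the comparison spots and the call limits, and 2 were added after seeing the data (spots of 20000 to 60000 UMIs, and the upper 50% by fibroblast genes). The code was tested on simulated counts. Python 3.11.15, numpy 2.4.6, scipy 1.17.1, pandas 2.3.3 and matplotlib 3.10.9 were used. A few list genes are not reported here.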

Additional observations from a re-analysis of the deposited data

Results flagged for a closer look

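Several genes changed between macrophage-rich spots and the lowest 50% in opposite directions in the libraries, each past 0.5 on the log2 scale. With 1 library per condition, none of these differences was tested. S100a8, a neutrophil calcium-binding protein, had log2 ratios of 0.94 (KPC-shZEB1 label) and -1.52 (KPC-shV label). Its partner S100a9 had 0.59 and -2.10. The inducible nitric oxide synthase gene Nos2 had 1.16 and -0.94, and Tff2, a trefoil factor of gastric mucous cells, had 1.89 and -0.94.

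Spots left out by the rule also held the ranking genes. Those under 10000 UMIs had a summed level of 3452 CPM (13 spots of the library labelled KPC-shZEB1) and 3194 CPM (390 spots of the library labelled KPC-shV), and 4 and 94 of them lay above the boundary of macrophage-rich spots, the latter 24.1% of their spots (interval 19.9% to 28.7%). Those at or over the limit for pancreatic enzyme genes had 658 CPM (858 spots) and 2049 CPM (305 spots), with 28 and 24 spots above the boundary.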

How the results depend on the processing

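Of the list sums past 2-fold, 26 of 27 in the library labelled KPC-shZEB1, 26 of 27 in the library labelled KPC-shV and 9 of 9 between the libraries kept their direction under all alternatives run. Of the named genes past 2-fold, 166 of 167, 164 of 166 and 71 of 71 did. The genes past 2-fold numbered 2808 in the library labelled KPC-shZEB1 (5166 past 1.5-fold, 1696 at 20 CPM or more), 3134 in the library labelled KPC-shV (5525 and 1912) and 542 between the libraries (1657 and 241, and 1281 at 1 CPM or more and 882 after thinning to 10000 UMIs). The median ratio of the identity genes in the library labelled KPC-shZEB1, 2.35, was 2.60 with the top 5% of spots, 2.07 with the top 20%, 2.54 with median-of-ratios scaling, 1.67 against all other eligible spots and 2.17 in the upper 50% by fibroblast genes. In the library labelled KPC-shV, 3.19 became 2.24 against all other eligible spots. Between the libraries it stayed between -0.11 and 0.11. Reversals were few. In the upper 50% by fibroblast genes, the islet sum of the library labelled KPC-shV went from 1.64 to -0.12, Gcg there from 1.55 to -0.58 (-0.10 with the top 5%), Ccl4 there from -1.17 to 0.16, and Ifit1 of the library labelled KPC-shZEB1 from -1.12 to 0.024. The adipocyte sum of that library, -1.12, was 0.22 when ranked without the C1q genes and 0.35 after thinning. The cause of these was not tested. No paired analysis was possible because each condition has 1 library and the labels give no replicate numbers. With 1 library per condition, the spread between tumors is unknown, and no interval here covers it.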
